A study of Mus musculus with 23 samples.

Results

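The early secretory pathway genes Tmed2, Tmed3, Tmed4, Tmed5, Tmed7, Tmed9, Tmed10, Tram1 and Tram2 were examined in the brown adipose tissue (BAT) of mice with and without the mitochondrial calcium uniporter gene Mcu. These 9 genes, 7 of the TMED family and 2 of the TRAM family, were taken by symbol from a table of 14651 genes, and all 9 were present. Tmed9 and Tram2 were chosen by their difference between genotypes at 4°C, and the other 7 are their relatives. The questions were whether the relatives followed Tmed9 and Tram2 by genotype, and how each of the 9 differed between room temperature (RT) and the cold. BAT came from 23 male mice of mainly C57BL/6 background, 8 to 12 weeks old, in 4 groups. The line with the conditional Mcu allele was made in ES cells of a mixed background and then crossed to C57BL/6J. By the paper, that crossing ended at near but not full homogeneity, and the Cre line was a B6.FVB transgenic. The controls were Mcu[fl/fl] animals without Cre, at RT (n = 6) or 4°C (n = 5), and the BAT-Mcu-KO animals were Mcu[fl/fl];Ucp1-Cre, at RT (n = 6) or 4°C (n = 6). All mice therefore carried the allele with the second exon flanked by LoxP sites, and were kept for 6 h at their housing temperature. Cre was driven by the Ucp1 promoter, which is active in brown adipocytes, so that other cells of the tissue kept Mcu. The controls lacked the transgene, hence the loss of Mcu and the presence of the Ucp1-Cre transgene cannot be told apart. Mice in the cold were housed singly, without bedding and generally without food. The paper does not state whether the sequenced mice at RT were housed and fed in the same way. Where they were not, these conditions cannot be told apart from temperature.

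Proteins that are secreted or placed in membranes enter the endoplasmic reticulum (ER) through the Sec61 channel. TRAM1 is a membrane protein beside that channel which helps certain nascent chains to insert, and TRAM2 is its relative, linked with collagen synthesis and with the calcium pump of the ER. Cargo then leaves the ER in COPII-coated vesicles for the Golgi, and escaped material returns in COPI-coated vesicles. TMED proteins, also called p24 proteins, span the membrane of these vesicles and act as cargo receptors, for proteins with a glycolipid anchor among others. They work as mixed complexes drawn from an alpha group (here Tmed4 and Tmed9), a beta group (Tmed2), a gamma group (Tmed3, Tmed5 and Tmed7) and a delta group (Tmed10). Brown adipocytes secrete lipoprotein lipase, adipokines and other factors through this route.

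Values are normalized counts, that is, reads of a gene divided by a size factor for the sample. The samples held 7129271 to 21006347 reads. Differences were tested by limma on log2(normalized count + 1), and a call required p under 0.05 after Benjamini-Hochberg adjustment over all 14651 genes. A log2 fold change on this scale understates that of a low gene. In bulk tissue, fewer cells of a type and less RNA per cell cannot be told apart. Mcu, the targeted gene, had a normalized count of 109.5 ± 22.5 (SD) in control and 35.1 ± 10.03 in BAT-Mcu-KO at RT, and every BAT-Mcu-KO mouse was below every control mouse at both temperatures. The 6 brown adipocyte markers were all present, with summed normalized counts of 188100 to 326000, and they differed with cold in both directions. Of the 5 skeletal muscle markers, the sum ran from 6.22 to 41360 between mice, with medians of 1473 (control) and 16330 (BAT-Mcu-KO) at RT and of 9546 and 2935 at 4°C. Given this spread, counts were also taken without the 5 mice above 10000 (2 control at 4°C and 3 BAT-Mcu-KO at RT), as an alternative chosen after seeing the data.

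Tmed9 and Tram2, the pair with lower RNA in BAT-Mcu-KO, lie on different chromosomes of mm10. Tmed9 is at chr13:55573732-55597697 on the plus strand and Tram2 at chr1:20996299-21079229 on the minus strand, both protein-coding. Their RefSeq promoter windows (GRCm38.p6, 250 bases before to 50 after the start, written 5′ to 3′ on the strand of the gene) are shown because this pair shared a direction by genotype. The window of Tmed9 is chr13:55592885-55593184 and that of Tram2 is chr1:21079176-21079475, and the capital marks the start base of the transcript. The RefSeq start of Tmed9 lies inside the GENCODE gene, which begins further upstream.
Tmed9: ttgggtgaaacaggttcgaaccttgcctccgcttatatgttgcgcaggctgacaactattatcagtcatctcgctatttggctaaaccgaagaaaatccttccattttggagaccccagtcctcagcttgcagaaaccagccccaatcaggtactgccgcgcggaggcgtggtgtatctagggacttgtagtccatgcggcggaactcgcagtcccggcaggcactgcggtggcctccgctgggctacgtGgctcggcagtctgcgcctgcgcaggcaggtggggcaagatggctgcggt
Tram2: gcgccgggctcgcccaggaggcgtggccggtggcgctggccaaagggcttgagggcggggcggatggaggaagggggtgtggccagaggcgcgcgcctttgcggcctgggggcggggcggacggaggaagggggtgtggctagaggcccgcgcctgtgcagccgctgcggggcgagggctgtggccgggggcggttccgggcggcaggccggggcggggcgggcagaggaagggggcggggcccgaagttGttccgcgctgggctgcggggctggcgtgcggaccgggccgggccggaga
The window of Tmed9 was 58.3% G and C and that of Tram2 79.7%. RefSeq windows were found for 6 of the 9 genes (Tmed3, Tmed4, Tmed5, Tmed9, Tmed10 and Tram2). On both strands, 4 motifs of stress-responsive factors were searched, namely TGATGNAA (bound by ATF4 with a C/EBP protein), TGACGTCA (the cyclic AMP response element), TGACGTGG (the unfolded protein response element) and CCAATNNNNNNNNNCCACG (the ER stress response element). These were held by 3.97%, 1.79%, 0.676% and 0.119% of the 32851 windows of the same length, respectively, and by 0 of the 6 windows here, which says only that these letters are not in these stretches.

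At 4°C, the contrast that chose them, Tmed9 and Tram2 were lower in BAT-Mcu-KO, whereas the log2 fold changes of the other 7 lay between -0.30 and 0.24. The normalized counts of Tmed9 were 329.7, 438.6, 322.3, 360.0 and 346.4 in the 5 control mice, and 186.7 to 270.7 with a median of 234.4 in the 6 BAT-Mcu-KO mice. Every BAT-Mcu-KO mouse was below every control mouse, a log2 fold change of -0.64 (SE 0.11) between means of 359.4 and 230.0. Tram2, a gene with few reads (9 to 85 per mouse over all groups), had normalized counts of 58.66, 54.63, 39.83, 62.44 and 67.36 in control and of 14.38 to 41.71 with a median of 20.12 in BAT-Mcu-KO at 4°C. Here 5 of the 6 BAT-Mcu-KO values fell below all controls, and the groups overlapped through 1 mouse of each (log2 fold change -1.31, SE 0.26). These values are given as a description, with no test, because they selected the pair. In limma on all mice these 2 of the 9 genes were past the threshold, against 0.0751% of all genes, and nothing is read from that share. Tmed9 lost that call with only the compared groups fitted (adjusted p = 0.243), without control replicate 2 at 4°C (0.0598) and without the 5 mice high in muscle markers (0.373, log2 fold change -0.56). Tram2 lost it with only the compared groups (0.245), with the replicate number as a block (0.118) and by edgeR (0.0802). Tram2 also lost it without the mice high in muscle markers (0.373, log2 fold change -1.23) and when any of 9 of the 11 mice at 4°C was left out (adjusted p up to 0.13).

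The 7 relatives had smaller log2 fold changes at 4°C than Tmed9 and Tram2, which is a description of the contrast that chose the pair, and whether any of them differed from the pair was not tested. For comparison, the 95% interval of Tmed9 itself was -0.87 to -0.41. Tmed4, the other member of the alpha group, had a mean of 790.1 ± 54.8 in control mice against 798.7 ± 58.4 in BAT-Mcu-KO (log2 fold change 0.02, 95% interval -0.16 to 0.19). Tmed10 had a log2 fold change of 0.02 (-0.14 to 0.19), Tmed5 one of -0.05 (-0.26 to 0.15), and Tmed2 one of -0.09 (-0.48 to 0.29), the last overlapping the interval of Tmed9. Tram1 had -0.11 (-0.38 to 0.16). The gamma members Tmed7 and Tmed3 lay on opposite sides of zero, with log2 fold changes of -0.30 (-0.60 to 0.01) and 0.24 (0.02 to 0.46). The interval of Tmed7 also overlapped that of Tmed9. Of the 7 relatives 0 were called in limma (adjusted p of 0.677 or more). Only Tmed3 had an unadjusted limma p under 0.05, and its adjusted p was 0.677.

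**Figure D1:**
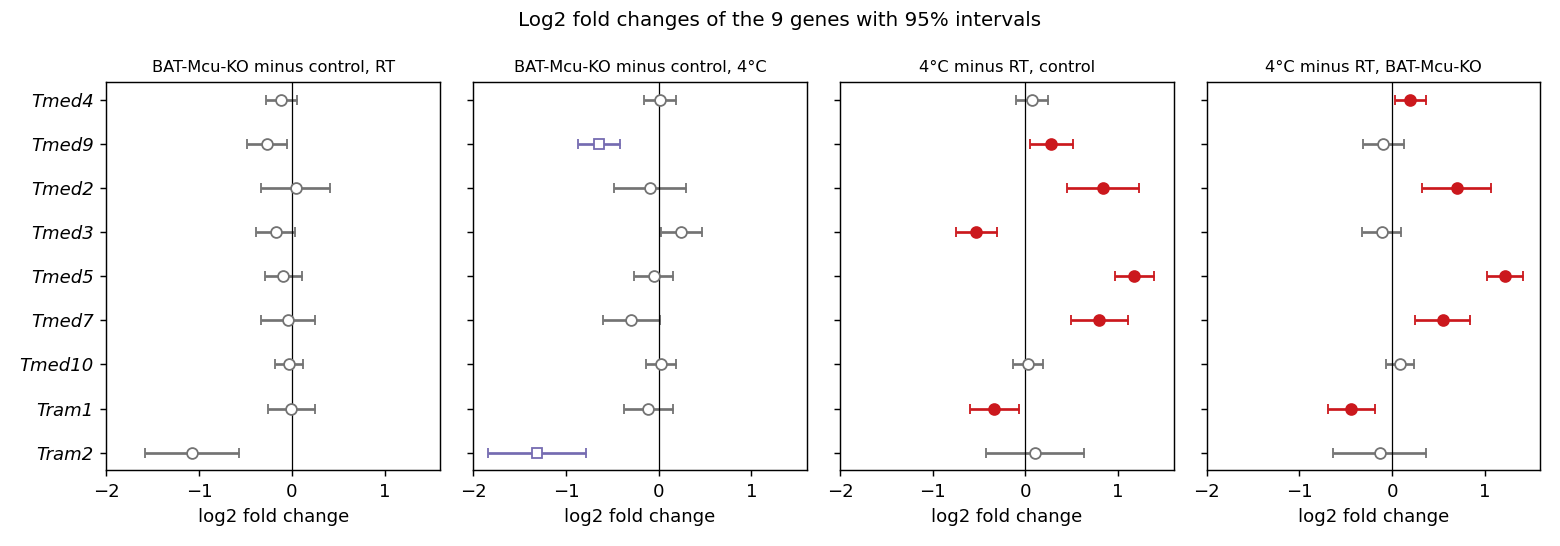
Log2 fold changes (x axis) of the 9 genes (y axis) with 95% intervals from limma, in 4 comparisons. Red filled circles passed an adjusted p under 0.05, grey open circles did not, and open squares mark Tmed9 and Tram2 at 4°C, which selected them. Tmed5 lay at 1.18 and 1.22 in the cold comparisons, and Tram2 at -1.08 and -1.31 by genotype.

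At RT, the means of Tmed9 and Tram2 were again below control, while 0 of the 9 genes passed the threshold in limma (0.0478% of all genes did). At an unadjusted p under 0.05 there were 2, and edgeR called 0 and DESeq2 1. The Tmed9 counts ran from 267.2 to 331.7 with a median of 292.4 in control and from 195.2 to 272.4 with a median of 249.5 in BAT-Mcu-KO. Of the 6 BAT-Mcu-KO values 4 lay under the lowest control. The log2 fold change was -0.27 (SE 0.11, limma adjusted p = 0.94), and so did not pass.

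Tram2 had counts of 33.77 to 64.58 with a median of 58.72 in control and of 17.66 to 42.11 with a median of 22.0 in BAT-Mcu-KO at RT. The groups overlapped, with 5 of 6 BAT-Mcu-KO values under the lowest control. The log2 fold change was -1.08 (SE 0.24, limma adjusted p = 0.225). The DESeq2 test on the whole reads called Tram2 (adjusted p = 0.0278, over the alternatives 0.0278 to 0.664). Its difference at RT was known when the genes were chosen, and is therefore no independent evidence.

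Among the other 7 genes at RT, log2 fold changes ran from -0.17 (Tmed3) to 0.04 (Tmed2), with a median of -0.05, and 0 of 7 had an unadjusted p under 0.05, against 754 of all 14651 genes. Their median was near that of all genes, 0.00. The 95% interval of Tmed4 was -0.28 to 0.05 and that of Tram1 was -0.26 to 0.25.

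**Figure D2:**
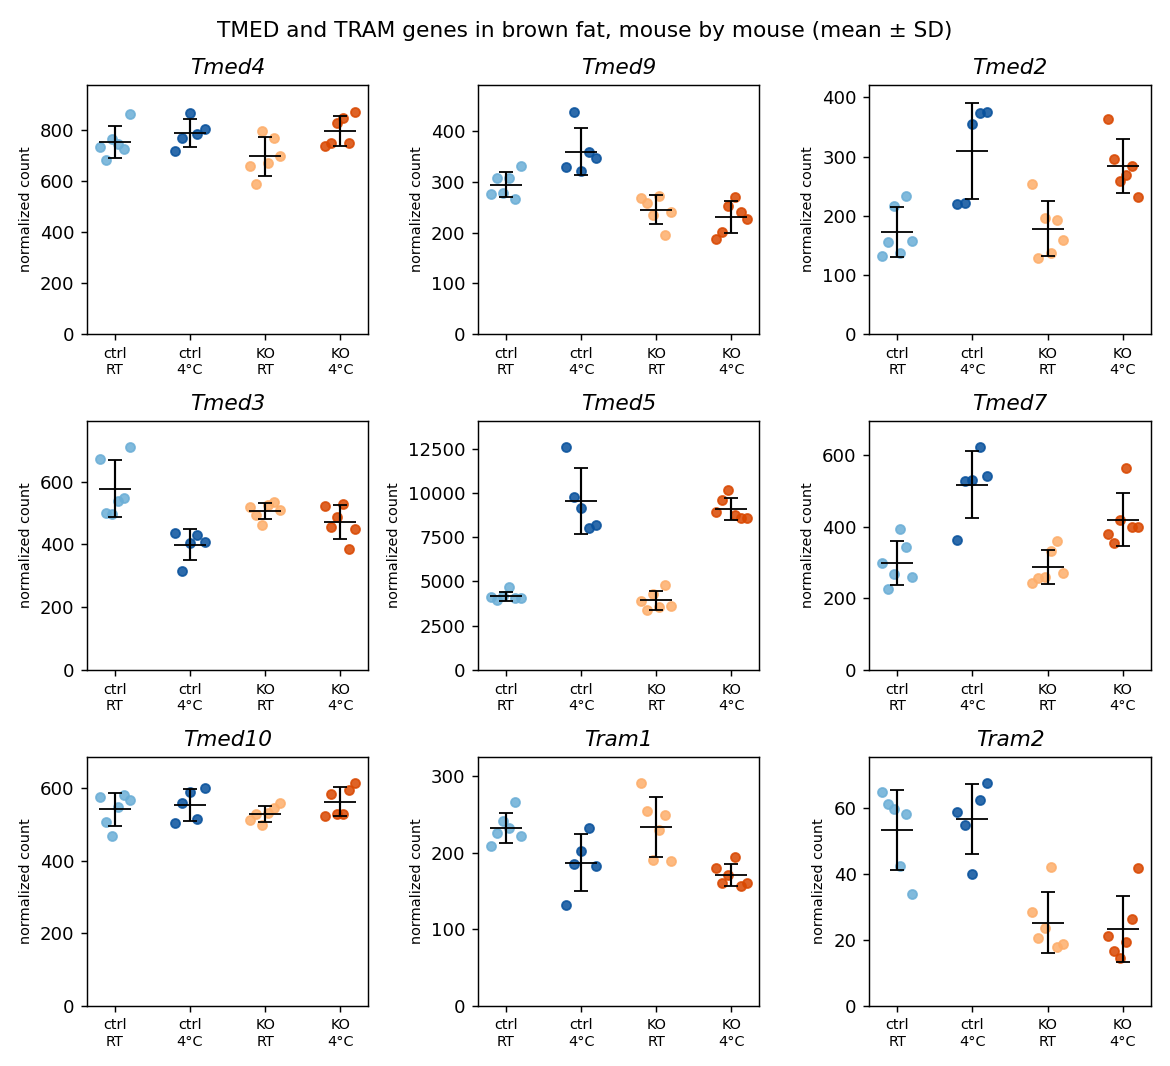
Normalized counts (y axis, from zero) of each mouse (points) in the 4 groups (x axis; ctrl is control, KO is BAT-Mcu-KO), with the mean and SD as black bars, 1 panel per gene. For Tmed5 all mice at 4°C lie above all mice at RT, and for Tmed9 all 6 BAT-Mcu-KO mice at 4°C lie below the 5 controls.

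In the cold, the members moved apart from each other. In control mice Tmed2, Tmed5 and Tmed7 rose, 2 fell (Tmed3 and Tram1) and 3 did not pass the test. Over all genes 46.0% were called, 22.3% higher and 23.7% lower. The call of Tram1 in control was lost under several alternatives. Tmed9 was also called higher in control, but its 4°C control values entered the contrast that chose it and several alternatives lost the call, so it is not counted as a rise. In BAT-Mcu-KO mice 4 rose (Tmed2, Tmed4, Tmed5 and Tmed7), 1 fell (Tram1) and 4 did not pass, where 43.3% of all genes were called, 21.4% higher and 21.9% lower. Cold therefore called a large share of all genes too, and nothing particular to the 9 is read from these counts. The median log2 fold change of the 9 was 0.10 in control and 0.09 in BAT-Mcu-KO, against -0.02 over all genes in each. Without the 5 mice high in muscle markers 4 members were called in each genotype. With scaling by the 75th percentile, which moved the midpoint of the log2 fold changes over all genes with cold in control mice from -0.02 to -0.13, 5 and 4 members were called and none of the calls changed direction. Over all genes that scaling called 2644 higher and 4281 lower in control, where the values as deposited gave 3269 and 3466. The summed endothelial markers were also higher in the cold, with a normalized count of 2713 to 4107 at RT and 4835 to 7626 at 4°C in control and of 2949 to 3867 and 4508 to 6381 in BAT-Mcu-KO, and 2 of the 5 were called higher in each genotype (Pecam1 and Kdr), while 1 was called lower in control (Emcn). Of the 6 brown adipocyte markers 2 were called higher (Ucp1 and Plin1) and 3 lower in control (Cidea, Adipoq and Cox8b), and 1 was called in BAT-Mcu-KO, Ucp1, which was higher. Their summed normalized count had medians of 205400 at RT and 286600 at 4°C in control and of 200000 and 301400 in BAT-Mcu-KO. The part of these cell types in the differences was not tested.

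Tmed5 (chr5:108106366-108132620, minus strand), a gamma member, had the largest cold difference of the 9 genes. Its normalized counts in control ran from 3945 to 4683 with a median of 4087 at RT and were 12570, 9794, 9172, 8015 and 8162 at 4°C. In BAT-Mcu-KO they ran from 3403 to 4793 with a median of 3773 at RT and from 8562 to 10150 with a median of 8821 at 4°C. The groups did not overlap in either genotype. The mean rose 2.29-fold in control (log2 fold change 1.18, SE 0.10, limma adjusted p = 8.41e-10) and 2.31-fold in BAT-Mcu-KO (1.22, SE 0.10, adjusted p = 2.17e-10). The gene shares 395 bp of exon, 5.14% of its own, with Mtf2 on the other strand, and reads were counted irrespective of strand.

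Tmed7 (chr18:46560235-46597535, minus strand), also of the gamma group, rose with cold in both genotypes. Its normalized counts in control were 225.9 to 392.7 with a median of 282.5 at RT, and 364.1, 528.1, 530.2, 621.5 and 542.9 at 4°C, so that 4 of 5 mice in the cold were above every mouse at RT. In BAT-Mcu-KO they were 243.3 to 360.6 with a median of 264.4 at RT and 356.0 to 563.4 with a median of 399.8 at 4°C, with 5 of 6 above. The log2 fold change was 0.80 (SE 0.15, limma adjusted p = 9.55e-05) in control, against 0.54 (SE 0.14, adjusted p = 0.00299) in BAT-Mcu-KO. Of its exon length 838 bp, or 9.48%, are shared with Ticam2 on the same strand.

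Tmed2 (chr5:124540695-124550506, plus strand), the beta member, rose as well. Its normalized counts in control were 132.2 to 233.0 with a median of 157.0 at RT and 220.5, 221.6, 354.7, 373.2 and 376.1 at 4°C, and 3 of 5 mice in the cold were above every mouse at RT. In BAT-Mcu-KO they were 127.9 to 253.7 with a median of 176.1 at RT and 231.1 to 364.1 with a median of 276.3 at 4°C. The groups overlapped in both genotypes, with log2 fold changes of 0.83 (SE 0.19, limma adjusted p = 0.000767) in control, against 0.70 (SE 0.18, adjusted p = 0.00279) in BAT-Mcu-KO.

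Tmed3 (chr9:89699206-89705068, minus strand), the remaining gamma member, went the other way. In control its normalized counts were 496.4 to 709.1 with a median of 543.1 at RT and 436.9, 314.1, 403.2, 431.2 and 407.3 at 4°C, and the groups did not overlap. The log2 fold change was -0.53 (SE 0.11, limma adjusted p = 0.00024). In BAT-Mcu-KO the counts were 461.3 to 534.4 with a median of 513.5 at RT and 384.4 to 527.8 with a median of 470.7 at 4°C, with overlap (log2 fold change -0.11, SE 0.10, limma adjusted p = 0.398). The difference between the genotypes, the interaction, was 0.42 (SE 0.15), with a limma adjusted p = 0.78, and so did not pass. Hence the response of Tmed3 was not shown to differ between genotypes.

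Tmed4 (chr11:6270369-6274870, minus strand) and Tmed10 (chr12:85340614-85374847, minus strand) varied least. Tmed10, the delta member, has a processed copy, Tmed10-ps, on chromosome 13, and reads that map to both were not counted. It had group means of 528.8 to 562.3 and log2 fold changes of 0.03 (95% interval -0.13 to 0.19) with cold in control and of 0.09 (-0.07 to 0.24) in BAT-Mcu-KO. The log2 fold change of Tmed4 was 0.07 (-0.10 to 0.24) in control. In BAT-Mcu-KO it was 0.20 (SE 0.08, limma adjusted p = 0.0476), and the adjusted p ran from 0.0221 to 0.154 over the alternatives. Tmed4 lost the call when any of 7 mice was left out, with adjusted p up to 0.137.

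Tmed9 and Tram2 in the cold comparisons share the mice at 4°C with the contrast that chose them. Tmed9 had a log2 fold change of 0.28 (SE 0.11, limma adjusted p = 0.041) in control, against -0.09 (SE 0.11, adjusted p = 0.504) in BAT-Mcu-KO. The call in control was lost with 75th percentile scaling (adjusted p = 0.214), with only the compared groups (0.0555), without the mice high in muscle markers (0.266) and when any of 6 mice was left out, with an adjusted p of 0.144 and a log2 fold change of 0.21 without control replicate 2 at 4°C, the highest mouse. Tram2 had 0.10 (SE 0.26, adjusted p = 0.775) and -0.13 (SE 0.25, adjusted p = 0.694). Its level thus differed with cold by less than the spread between mice in either genotype, with 95% intervals of -0.43 to 0.63 and -0.64 to 0.37.

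Tram1 (chr1:13564698-13589910, minus strand) was called lower with cold by limma in both genotypes, though the call in control was not stable. Its normalized counts in control were 208.9 to 266.1 with a median of 229.4 at RT and 131.5, 185.1, 202.9, 232.9 and 182.8 at 4°C. In BAT-Mcu-KO they were 189.5 to 290.8 with a median of 239.7 at RT and 156.5 to 194.8 with a median of 166.0 at 4°C. In the cold 4 of 5 control mice were below every control mouse at RT, and so were 5 of 6 BAT-Mcu-KO mice relative to theirs. The log2 fold change was -0.33 (SE 0.13, limma adjusted p = 0.0367) in control, against -0.44 (SE 0.12, adjusted p = 0.00529) in BAT-Mcu-KO. In control the call was lost by edgeR (adjusted p = 0.0552) and by DESeq2 (0.0586). In limma it was lost with only the compared groups (0.0685) and without the mice high in muscle markers (0.083). It was also lost when any of 6 mice was left out, with an adjusted p of 0.154 and a log2 fold change of -0.21 without control replicate 1 at 4°C. In BAT-Mcu-KO the call held under every alternative (adjusted p = 0.00116 to 0.0183).

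No member passed the test of the interaction, which asks whether cold differed by genotype, in limma, edgeR or DESeq2, and 2 had an unadjusted limma p under 0.05. Among all genes 0 passed in limma (0.0%), with 878 at an unadjusted p under 0.05, 0 by edgeR and 28 by DESeq2. For Tmed9 the interaction was -0.38 (SE 0.15, limma adjusted p = 0.80), and it includes the contrast that chose the gene.

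Of 5 further relatives looked for, Tmed1 and Tmed8 were in the table. Tmed1, a gamma member, fell with cold in both genotypes, from a mean normalized count of 303.4 ± 54.3 to 164.8 ± 30.1 in control (log2 fold change -0.88, SE 0.14, limma adjusted p = 8.19e-06) and from 299.4 ± 26.1 to 198.0 ± 35.5 in BAT-Mcu-KO (-0.61, SE 0.13, adjusted p = 0.000408), without overlap in either. It shares 13.6% of its exon length with Dnm2 on the other strand. By genotype its log2 fold change at RT was -0.01 (95% interval -0.27 to 0.26). Tmed8, which has only the lumenal GOLD domain in common with the family, fell with cold in control (log2 fold change -0.48, SE 0.19, adjusted p = 0.0388), and had -0.05 (SE 0.18, adjusted p = 0.843) in BAT-Mcu-KO. At RT the normalized counts of Tmed8 were 103.8 to 133.7 in control and 57.3 to 106.2 in BAT-Mcu-KO, with 5 of 6 BAT-Mcu-KO mice below every control. Its log2 fold change by genotype there was -0.47 (95% interval -0.84 to -0.10, limma adjusted p = 0.94), a larger point value than that of Tmed9, and at 4°C it was -0.05 (-0.43 to 0.34). With Tmed1, the gamma group therefore held 2 members that rose with cold in both genotypes (Tmed5 and Tmed7), 1 that fell in both (Tmed1) and 1 called lower in control (Tmed3).

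To compare genes with each other, normalized counts were divided by the exon length in kb. Of the 9 genes in control mice at RT, Tmed5 had the highest level per kb, 542.5 ± 33.9. Next were Tmed4 with 346.3 ± 28.01 and Tmed3 with 202.8 ± 31.9. Then came Tmed10 with 93.2 ± 7.71, Tmed9 with 85.7 ± 7.26, Tram1 with 73.6 ± 6.22 and Tmed2 with 68.1 ± 16.7, of which neighbours in this order differed by less than the sum of their SDs. Tmed7 had 33.7 ± 6.93 and Tram2 7.99 ± 1.84, the lowest. The alpha member Tmed4 was thus above Tmed9, and Tram1 above Tram2, in all 4 groups. In control mice at RT, the first 3 and the last 2 ranks were the same with the longest transcript as the length.

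In both genotypes, the shares of Tmed3, Tmed4, Tmed5 and Tmed10 in the summed level of the 7 TMED members differed between temperatures by more than the group SDs. Those of Tmed2 and Tmed7 differed by less than these SDs. The share of Tmed9 was 6.25% ± 0.51 at RT and 4.96% ± 0.82 at 4°C in control. In BAT-Mcu-KO the share of Tmed9 was 5.66% ± 1.00 and 3.285% ± 0.44. It thus also differed by more than either SD, though its 4°C values entered the contrast that chose it. All of this is a description with no test. Summed over the 7 genes, the level per kb was 1372 ± 66.8 at RT and 2125 ± 185 at 4°C in the controls. For BAT-Mcu-KO the sums were 1275 ± 105 and 2038 ± 88.9. Tmed5 made up 39.6% ± 2.22 of this sum at RT and 58.0% ± 5.97 at 4°C in the controls. For BAT-Mcu-KO its share was 40.0% ± 2.11 and 58.0% ± 2.05. The share of Tmed3 was 14.7% ± 1.89 and 6.62% ± 0.94 in control, and that of Tmed4 was 25.2% ± 1.21 and 17.2% ± 2.18. Shares of 1 sum are tied to each other, so that the lower share of Tmed4 stands beside a level that did not fall. These sums and shares leave out the relatives Tmed1 and Tmed8. In control, Tmed1 had a level per kb of 199.7 ± 35.7 at RT and 108.5 ± 19.8 at 4°C. That of Tmed8 was 16.0 ± 1.46 and 11.6 ± 2.33. The sums and shares also depend on the length used. With the longest transcript in place of all exons, the sum in control was 2264 ± 108 at RT and 3709 ± 419 at 4°C, the share of Tmed5 was 48.5% ± 2.45 and 67.3% ± 5.15, and that of Tmed4 was 16.6% ± 0.91 and 10.8% ± 1.59.

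**Figure D3:**
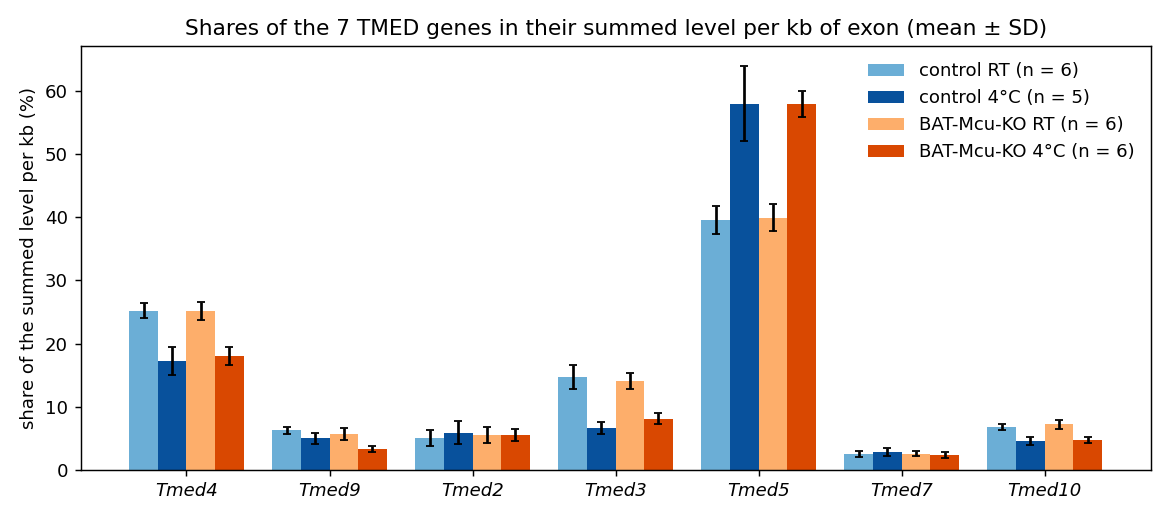
Share of each of the 7 TMED genes (x axis) in their summed level per kb of exon (y axis, %), as mean and SD over the mice of the 4 groups. The bar of Tmed5 is at 39.6% and 40.0% at RT and at 58.0% in both genotypes at 4°C.

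Across all 23 mice, likeness was taken as the mean absolute difference of centred log2 values, over the genes whose mean normalized count reached 50, and is a description that includes the group differences. Over the 36 pairs of members, Tmed4 and Tmed10 were the most alike (0.115) and Tmed5 and Tram1 the least (0.792). The 5 genes most like Tmed9 were Arpc3 (0.171), Pcbp2 (0.185), Stxbp5 (0.186), Qk (0.189) and Wwc2 (0.19), against a median of 0.35 over 9530 genes, and its nearest relative was Tmed10 at rank 522 (0.248). The 5 genes most like Tram2 were Col18a1 (0.455), Mcu (0.46), Tmed9 (0.477), Cenpc1 (0.487) and Casc3 (0.493). The median was 0.684, and Tram1 was at rank 1492 (0.633). Tmed9 and Tram2 were chosen by their genotype difference in the cold, and the same mice enter this likeness. Mcu is the targeted gene and differs by genotype too. The closeness of Tram2 to Tmed9 and Mcu was therefore partly built in by the choice, and is no independent evidence.

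Near Tram2, 6 other genes within 1 Mb were in the table, and 1 of them was called by genotype, a neighbour singled out after its values were seen. Gsta3 (chr1:21240589-21265661, plus strand), a glutathione transferase of steroid synthesis, lies 161.4 kb from Tram2 and went the opposite way. Its normalized counts at RT were 24.54 to 40.72 in control and 70.76 to 274.1 in BAT-Mcu-KO, and at 4°C they were 24.24 to 37.69 and 52.56 to 95.13. At both temperatures the lowest BAT-Mcu-KO value exceeded the highest control, with log2 fold changes of 1.74 (SE 0.25, limma adjusted p = 0.00131) and 1.47 (SE 0.26, adjusted p = 0.0151). The other 5 neighbours had log2 fold changes of -0.30 to 0.62 at RT and of -0.90 to 0.33 at 4°C, with adjusted p of 0.793 or more. Of the 31 tested genes within 1 Mb of Tmed9, 0 were called by genotype (limma, with 0 at RT and 1 at 4°C at an unadjusted p under 0.05), with log2 fold changes of -0.78 to 0.55 at RT and of -0.55 to 0.35 at 4°C.

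The wider pathway was read from 7 lists with 136 of 140 genes in the table. By genotype, limma called 0 of the 136 at RT (6 at an unadjusted p under 0.05) and 1 at 4°C. This was Atf4, the transcription factor of the integrated stress response, which was lower in BAT-Mcu-KO (log2 fold change -0.66, SE 0.11, limma adjusted p = 0.0151). Atf4 was not followed under the alternatives, several of which called fewer genes at 4°C, and limma did not call its interaction. With cold, 45 of the 136 rose and 23 fell in control, where 22.3% of all genes were called higher and 23.7% lower. In BAT-Mcu-KO 44 rose and 21 fell, where the shares over all genes were 21.4% and 21.9%. In both directions together, 50% of the 136 were called in control against 46.0% of all genes. For BAT-Mcu-KO the share was 47.8% against 43.3%. These totals were near the background, but the split by direction was not. Control mice had 33.1% of the 136 called higher, beside 16.9% called lower. The shares for BAT-Mcu-KO mice were 32.4% higher, beside 15.4% lower. Much of this lean lay in the lists of the COPII coat and of the ATF4 branch and ER chaperones. In control, COPII had 10 of 18 genes called higher and 2 lower, and the ATF4 list 13 of 22 and 2. The calls higher and lower were 6 and 3 for COPI, 5 and 4 for cargo receptors, and 3 and 2 for the translocon. For the oligosaccharyltransferase they were 1 and 3, and for tethers, RABs and SNAREs 7 and 7. The lean towards higher calls was not tested.

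The COPII coat, which carries TMED proteins out of the ER, had 10 of 18 genes called higher and 2 lower in each genotype, with list medians of 0.49 (control) and 0.32 (BAT-Mcu-KO) on the log2 scale beside -0.02 over all genes. Of the list 55.6% were thus called higher and 11.1% lower, beside the 22.3% and 23.7% of all genes in control and the 21.4% and 21.9% in BAT-Mcu-KO. Sar1b, the GTPase that starts the coat, rose from a mean normalized count of 1646 ± 222 to 3399 ± 240 in control (log2 fold change 1.06, limma adjusted p = 1.95e-09), and Sec24c, a cargo adaptor, from 954.6 ± 74.1 to 1550 ± 104. Sec31b, a minor isoform of the outer coat, fell from 224.9 ± 54.5 to 136.0 ± 17.1, and Preb, the exchange factor for Sar1, from 531.5 ± 44.2 to 413.0 ± 68.2. The COPI coat and ARF list had 6 of 17 higher and 3 lower in control (5 and 3 in BAT-Mcu-KO), or 35.3% and 17.6% in control, with Copb1 and Arfgap1 higher and Copg2 and Copz2 lower.

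Of the other cargo receptors 5 of 18 were called higher and 4 lower in each genotype, or 27.8% and 22.2%, near the shares over all genes. Ergic1 rose from 858.3 ± 114 to 1820 ± 382 and Cnih4 from 616.9 ± 73.8 to 1107 ± 170 in control, while Cnih1 fell from 1379 ± 132 to 1032 ± 98.2 and Mcfd2, the partner of the lectin receptor LMAN1, from 972.5 ± 126 to 704.3 ± 51.7. Of the tethers, RABs and SNAREs, 7 of 26 rose and 7 fell in control (5 and 7 in BAT-Mcu-KO), 26.9% each way in control and also near those shares, with Rab1 and Sec22b higher and Sec22a and Sec22c lower.

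On the side of ER entry, where TRAM proteins act, 3 of 23 genes of the translocon and of signal peptide processing rose and 2 fell in control (4 and 2 in BAT-Mcu-KO), 21.7% in all where 46.0% of all genes were called. Sec62 and Srp54b were higher, and Sec61b, a subunit of the channel, fell from 329.5 ± 66.5 to 213.3 ± 15.5. Of the oligosaccharyltransferase, which glycosylates nascent chains, 1 of 12 rose (Magt1) and 3 fell in control, Tmem258 and Ost4 among them, and 3 rose and 1 fell in BAT-Mcu-KO, 33.3% in all in each genotype. In the list of the ATF4 branch and ER chaperones, which mixes both arms, 13 of 22 rose and 2 fell in control (12 and 2 in BAT-Mcu-KO), or 59.1% and 9.09% in control beside the 22.3% and 23.7% of all genes. Atf4 rose from 609.9 ± 59.3 to 2992 ± 137 and Atf3 from 9.54 ± 4.89 to 451.5 ± 185, while the folding enzymes Pdia6 and Pdia4 fell from 1009 ± 98.7 to 578.1 ± 37.6 and from 453.3 ± 76.6 to 204.4 ± 38.2. The bearing of these calls on the TMED and TRAM genes was not tested.

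**Figure D4:**
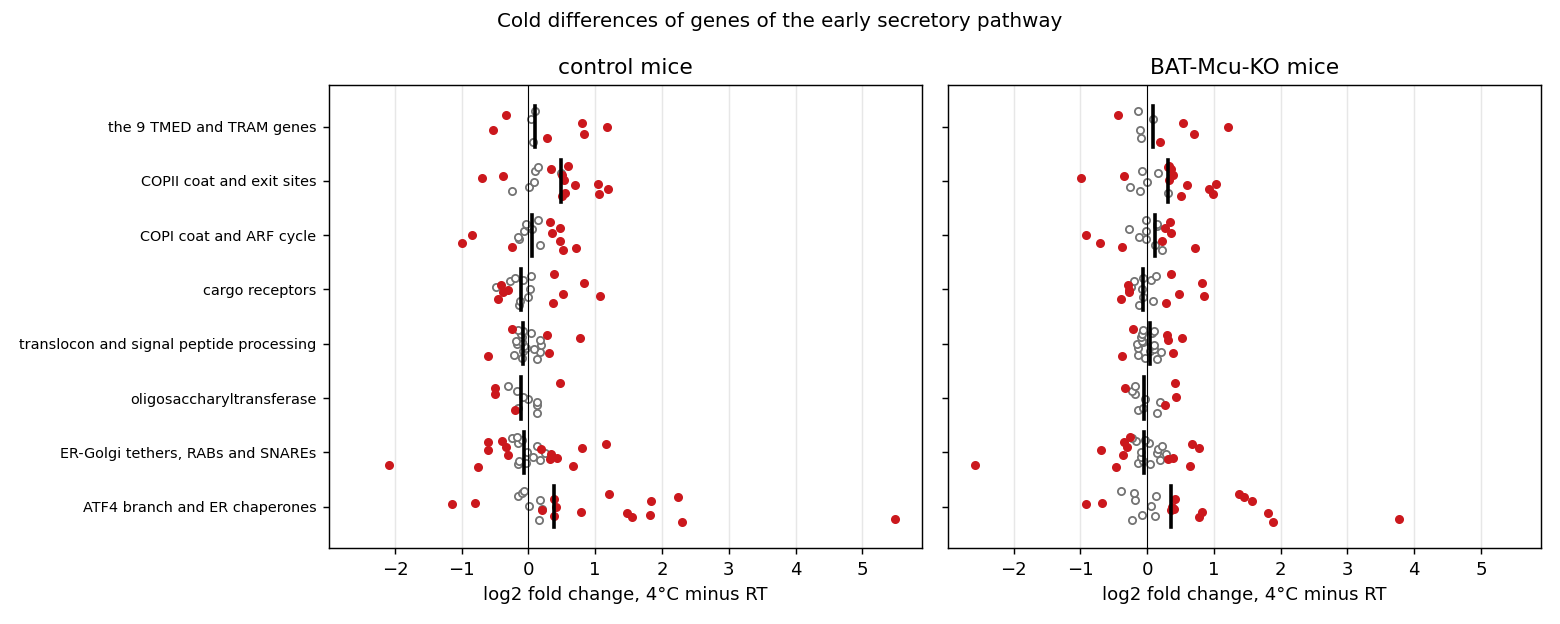
Log2 fold changes with cold (x axis) of the 9 genes and of the 7 lists (y axis), in control (left) and BAT-Mcu-KO mice (right), with 1 point per gene, red where called at an adjusted p under 0.05 in limma and open where not, and the median of each list as a black line. The median of the COPII list is 0.49 in control and 0.32 in BAT-Mcu-KO, and the 9 genes spread to both sides of zero.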

How the data were processed

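Libraries from mouse BAT were made by Smart-seq2 and read as 2 × 25 bp pairs. The authors aligned them to mm10 with STAR 2.4.0j and counted unique exonic reads with HTSeq irrespective of strand, so reads of near-identical copies were not counted and those of overlapping genes cannot be told apart. They kept genes that reached 8 reads in 6 or more samples, and deposited a signal, the counts normalized by the median ratio of DESeq2. All samples were used, and 0 per-sample columns were left out. Their table of comparisons (log2 and linear fold changes, p-values and adjusted p-values) was not used. Every value came out as whole reads (100% of values), 7129271 to 21006347 per sample. The tolerance was 0.01 of a read for low counts and widened in proportion to the count for high ones, where it is a weak check. Counting errors cover reads only, since PCR copies are not independent.

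The 23 samples were fitted in 1 model with a mean per group (limma 3.58.1 with a variance trend, R 4.3.3) on log2(normalized count + 1). The code was tested on simulated data. Alternatives were pseudocounts of 0.5 and 10, a mean of 50 or more, 75th percentile scaling, only the compared groups, the replicate number as a block, each mouse left out, and edgeR 4.0.16 and DESeq2 1.42.0 on the recovered reads. Exon lengths and positions came from GENCODE M21 on GRCm38, where the authors used M7. Values of all 9 genes were given; of each pathway list, the 2 called genes with the smallest p in each direction with cold in control were named. Nothing says that littermates or cages were spread over groups. In the main fit, a p-value sets a group difference against the spread between mice within groups, estimated from all 23 samples. The genes, lists and tests were chosen with earlier results of these data known. The macrophage, fibroblast and plasma cell markers were also summed, with 3 of 5 macrophage and 1 of 5 fibroblast markers called higher with cold in BAT-Mcu-KO. Of the plasma cell markers 2 of 5 were in the table and 0 were called by limma.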

Additional observations from a re-analysis of the deposited data

Results flagged for a closer look

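In 36 sets of mice, each member in each group, a mouse stood far from the others (gap to the next mouse over the whole range, Dixon's 95% value) in 3, and chance gives this in about 1 of 20 sets. Tmed3 was at 314.1 normalized counts in the lowest control mouse at 4°C, with a gap of 0.726 of the range. Tmed5 was at 4683 in the highest control mouse at RT (0.706), still below every mouse at 4°C. Tmed7 was at 563.4 in the highest BAT-Mcu-KO mouse at 4°C (0.698). Leaving out these mice changed none of the calls of the same gene with cold.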

How the results depend on the processing

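Tmed2, Tmed5 and Tmed7 kept their calls with cold in both genotypes, Tmed3 in control and Tram1 in BAT-Mcu-KO, under every alternative run. The calls of Tmed9 and Tram1 in control and of Tmed4 in BAT-Mcu-KO did not. Tram2 rests on 9 to 85 reads per mouse, which limits its precision, and it had no value with a mean of 50 or more. For genotype at RT, 3 genes of all were called with only the compared groups and 20 by DESeq2, which called 1 member. For genotype at 4°C, 2 genes of all were called with only the compared groups, 6 by edgeR, 27 by DESeq2 and 2 without the mice high in muscle markers. Members called there were 1 with a mean of 50 or more, 1 by edgeR, and 0 with only the compared groups or without the mice high in muscle markers, and 0 to 2 when each mouse was left out (3 to 16 genes of all). It was 0, and 3 genes of all, without control replicate 2 at 4°C. In the interaction DESeq2 called 28 genes, and leaving out each mouse gave 0 to 1. The causes were not tested.

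The replicate number as a block gave 7 genes and 1 member, Tmed9, at 4°C, and changed no other count of members. Whether same-numbered mice share more than a number is not known. Between genotypes at 4°C their deviations were correlated by 0.0416 to 0.218, all positive. The lowest correlations were -0.135 at RT, -0.153 with cold in control and -0.204 in BAT-Mcu-KO, and the reason for the difference was not tested.

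Signs changed only for log2 differences near zero that were not called. Tram1 at RT became 0.01 by edgeR and by DESeq2 and 0.19 without the mice high in muscle markers. Tmed4 at 4°C became -0.01 with the block. With 75th percentile scaling the cold difference in control became -0.04 for Tmed4, -0.08 for Tmed10 and -0.01 for Tram2. Without the mice high in muscle markers, Tmed10 with cold in control became -0.01, the interaction of Tmed5 -0.04, and Tram2 in the cold comparison of BAT-Mcu-KO mice 0.0022. With each mouse left out, genotype at RT ran from -0.07 to 0.14 for Tmed2, -0.12 to 0.04 for Tmed7 and -0.07 to 0.05 for Tram1, and genotype at 4°C from -0.02 to 0.05 for Tmed4, -0.11 to 0.05 for Tmed5 and -0.01 to 0.05 for Tmed10. Cold in control ran from -0.01 to 0.06 for Tmed10 and -0.02 to 0.22 for Tram2, the interaction from -0.02 to 0.15 for Tmed5, and cold in BAT-Mcu-KO from -0.31 to 0.02 for Tram2.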
